A study of Mus musculus with 6 samples.

Results

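The cadherin superfamily genes described here are the rows of the authors' deposited table whose symbols begin with Cdh and a digit, Pcdh, Dsg, Dsc, Fat, Celsr or Dchs, without Cdh5. The rule found 75 of the 15648 listed genes. They fall into 7 groups: 5 type I classical cadherins, 3 type II classical cadherins, 1 other cadherin, 7 desmosomal cadherins, 41 clustered protocadherins, 10 non-clustered protocadherins and 8 giant cadherins of the Fat, Dchs and Celsr families. The GENCODE annotation holds 109 genes with such symbols, and the remaining ones are not analysed here. The lowest mean over both groups of any listed gene was 1.01, and genes under it are not analysed here, so counts are of measured members and a member can have been kept through the group where it is higher.

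RNA came from the intermolar eminence of the tongue (the bulge at the back of the upper surface) of C57BL/6 mouse embryos at E17.5, from 3 wild-type (WT) libraries and 3 labelled Fst-KO. Fst encodes follistatin, a secreted binder of activins and some bone morphogenetic proteins. The allele, the part of the gene it removes and whether each library is 1 embryo or a pool were not given in the sources used here. Each gene has 1 mean per group, the ratio of the means (Fst-KO label over WT), a p-value and an FDR (a p-value adjusted over all genes), so no value per library, no error bar and no depth can be printed, and whether single libraries overlap cannot be seen. Nothing in the labels says that the libraries are separate animals, so the p-values rest on a spread between libraries that may be technical.

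Fst itself had a mean of 69.7 in the libraries labelled Fst-KO and 33.2 in WT per the authors' deposited table, a ratio of 2.10 at an FDR of 0.0158. The targeted gene therefore went against the label, and directions are given as those of the libraries labelled Fst-KO. If the names of the groups were exchanged, every ratio and direction given here would turn, and this was not tested. Most genes lay slightly higher in those libraries: 81% of all listed genes had a ratio above 1, and the median ratio was 1.14 per the authors' deposited table. A ratio between 1 and 1.14 thus lies below the middle of all genes, which is shifted by 0.18 on the log2 scale. The labels name the tissue tongue epithelium, and all 8 epithelial markers were measured, but so were 10 of 10 mesenchyme and 10 of 10 skeletal muscle markers. In bulk tissue, fewer cells of a type and less RNA per cell cannot be told apart. Whether the normalised values were divided by gene length was not given in the sources used here, so levels are compared between groups for 1 gene and not between genes.

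Cadherins are membrane proteins whose extracellular repeats bind calcium and, in most cases, the same cadherin on the neighbouring cell. Classical cadherins hold adherens junctions together and reach actin through catenins. Desmosomal cadherins (desmogleins and desmocollins) are anchored to keratin filaments through plakoglobin, plakophilins and desmoplakin, and stratified epithelia such as that of the tongue switch isoforms between basal and upper layers. Clustered protocadherins come from arrays of alternative first exons or single-exon genes and are best known for giving neurons an identity, while Fat, Dchs and Celsr proteins take part in planar cell polarity and growth control.

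One member, Pcdh10, passed an FDR of 0.05 and fell in the libraries labelled Fst-KO, and 0 members rose at that FDR. Over all genes 0.0959% passed that FDR and 0.0192% passed it as lower. At an unadjusted p under 0.05, 8 members were on the higher side, or 10.7% of the 75 against 13.4% of all genes, and 3 were lower, or 4.0% against 2.17%. The higher members were Cdh19, Cdh24, Dsg3, Cdh3, Pcdhga8, Pcdhb9, Dsg2 and Pcdh20. The lower members were Pcdh10, Dchs2 and Cdh4. A ratio above 1 was listed for 58 members, or 77.3% against 81% of all genes, and one above the median of all genes for 33, so 42 lay below that median. The median ratio of the members was 1.09, or 0.961 of the median of all genes per the authors' deposited table.

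**Figure D1:**
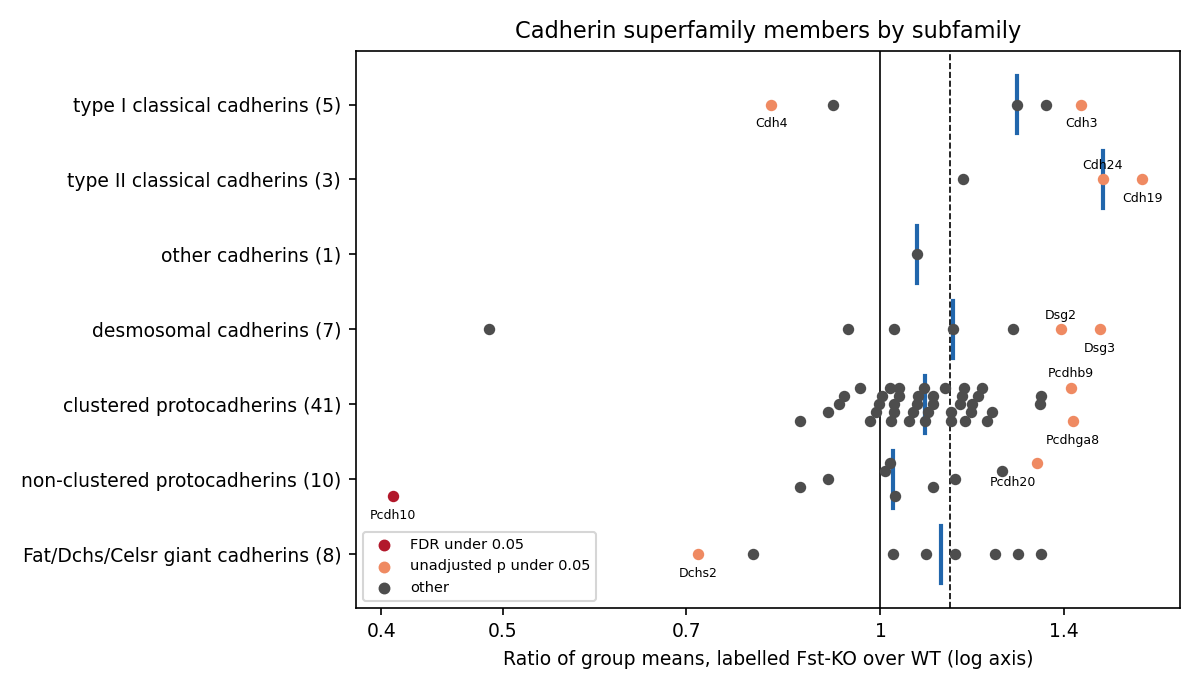
Ratio of group means (labelled Fst-KO over WT, log axis) for each of the 75 members, 1 point per gene, by subfamily with the number of genes in brackets. Blue bars are subfamily medians, the solid line is 1 and the dashed line the median of all 15648 genes (1.14); Pcdh10 lies alone at 0.409 on the left, and clustered protocadherins lie between 0.862 and 1.42.

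**Figure D2:**
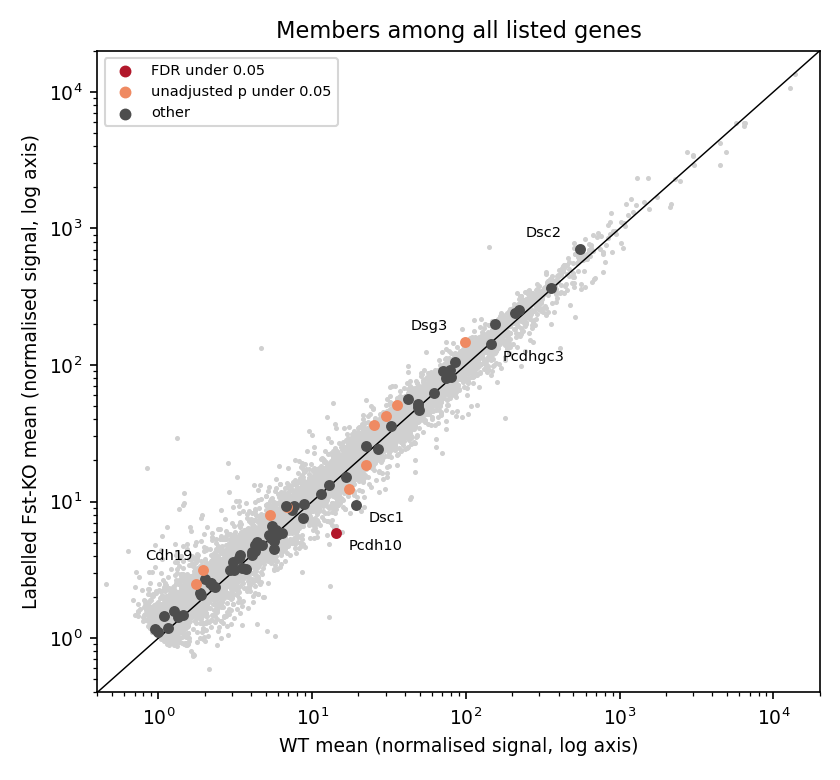
Mean normalised signal in WT (x axis) and in the libraries labelled Fst-KO (y axis), both on log axes, for all listed genes (grey) and the 75 members (coloured by call). The diagonal is equality; Pcdh10 and Dsc1 stand farthest below it among the members, with ratios of 0.409 and 0.488.

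Upstream sequences of 3 genes are shown because their genes lead the lower and the higher members and have an entry in the RefSeq promoter table (GRCm38.p6). Pcdh10 is the member past the FDR, Dchs2 has the next lowest p among lower members, and Cdh24 has the lowest p among higher ones. Each is the 250 bases before the RefSeq start, on the gene's strand, 5′ to 3′. Capitals mark the CRE core TGACG and the GC box GGGCGG on either strand, so a reverse-strand GC box reads CCGCCC. The positions are chr3:45378148-45378397 on the plus strand for Pcdh10, chr3:83127277-83127526 on the plus strand for Dchs2, whose GENCODE start lies farther on at 83127948, and chr14:54641365-54641614 on the minus strand for Cdh24.
Pcdh10: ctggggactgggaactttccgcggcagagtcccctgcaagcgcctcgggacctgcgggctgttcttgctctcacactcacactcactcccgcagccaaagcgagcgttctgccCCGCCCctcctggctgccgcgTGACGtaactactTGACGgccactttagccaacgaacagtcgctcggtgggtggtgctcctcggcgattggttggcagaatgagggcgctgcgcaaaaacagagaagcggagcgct
Dchs2: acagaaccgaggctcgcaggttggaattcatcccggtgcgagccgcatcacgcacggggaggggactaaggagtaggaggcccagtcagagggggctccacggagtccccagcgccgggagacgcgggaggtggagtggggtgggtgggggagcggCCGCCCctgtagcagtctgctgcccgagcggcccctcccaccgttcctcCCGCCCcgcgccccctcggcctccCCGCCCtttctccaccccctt
Cdh24: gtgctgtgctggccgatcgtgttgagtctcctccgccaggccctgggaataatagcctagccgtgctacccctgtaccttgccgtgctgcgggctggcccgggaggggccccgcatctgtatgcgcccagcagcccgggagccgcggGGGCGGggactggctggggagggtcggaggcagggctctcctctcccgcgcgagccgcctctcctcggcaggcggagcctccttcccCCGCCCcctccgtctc

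The Pcdh10 window held 2 matches to TGACG and the windows of Dchs2 and Cdh24 held 0, while 17.8% of all 32851 promoter windows of that length held at least 1. GC boxes numbered 1 in Pcdh10, 3 in Dchs2 and 2 in Cdh24, against 32.7% of all windows with at least 1. The E-box CACCTG, read by the Snail and Zeb repressors, and the GC-rich SMAD element GGCGCC, read by SMADs of the BMP branch, were found in none of the 3 windows; 17.2% and 9.59% of all windows held them on either strand. No motif searched overlapped another in these windows. Each window held 22 CpG dinucleotides, against a median of 6 over all windows, and the GC content was 63.2%, 72.0% and 72.8%. A match here is a run of letters and says nothing of binding.

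Among the non-clustered protocadherins, Pcdh10 fell and 0 of the other 9 passed the FDR. Pcdh10, a delta-2 protocadherin that supports homophilic adhesion and recruits actin regulators, lies on chromosome 3 from 45378398 to 45435623 on the plus strand (mm10). Its mean was 5.87 in the libraries labelled Fst-KO and 14.3 in WT per the authors' deposited table, a ratio of 0.409 (a log2 ratio of -1.29) at p = 7.06e-06 (FDR 0.0158). Its p ranked 7 from the lowest among all genes and its ratio ranked 22 from the lowest. It is 1 of 3 genes that passed as lower. Divided by the median ratio of all genes, it was 0.36. With 10 added to both means, the ratio was 0.652.

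Relatives of Pcdh10 on the same branch had ratios near or slightly above 1. The other delta-2 genes Pcdh17, Pcdh18 and Pcdh19 had ratios of 1.03, 1.02 and 1.15 per the authors' deposited table, with unadjusted p-values of 0.706, 0.835 and 0.150. Pcdh18 lies on the same chromosome as Pcdh10, from 49743296 to 49757325, with means of 62.7 in the libraries labelled Fst-KO and 61.6 in WT per the authors' deposited table. The difference between Pcdh10 and these genes was not tested, because no value per library is given. Among all 10 non-clustered genes, 7 had a ratio above 1 but just 3 exceeded the median of all genes, and their median ratio was 1.02.

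The delta-1 genes, whose tails bind a phosphatase, lay close to 1. In the authors' deposited table, Pcdh1 had means of 49.1 in the libraries labelled Fst-KO and 48.7 in WT, a ratio of 1.01. Pcdh7 had 35.7 and 32.5, a ratio of 1.10, and Pcdh9 had 7.53 and 8.73, a ratio of 0.863, per the authors' deposited table. None of the 3 had an unadjusted p under 0.05.

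Pcdh20 was the non-clustered gene on the higher side with an unadjusted p under 0.05, with a mean of 9.14 in the libraries labelled Fst-KO and 6.86 in WT per the authors' deposited table, a ratio of 1.33 (unadjusted p 0.0305, FDR 0.311). Pcdh12, a protocadherin of endothelium, had means of 15.1 and 16.6 and a ratio of 0.908 per the authors' deposited table (unadjusted p 0.635). The endothelial markers had a median ratio of 1.01 over 6 genes, with summed means of 153.0 and 150.6 and 0 at an unadjusted p under 0.05. Pcdh15, known from the tip links of inner ear hair cells, was near the lower end of the listed range, with means of 1.58 and 1.27 per the authors' deposited table.

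**Figure D3:**
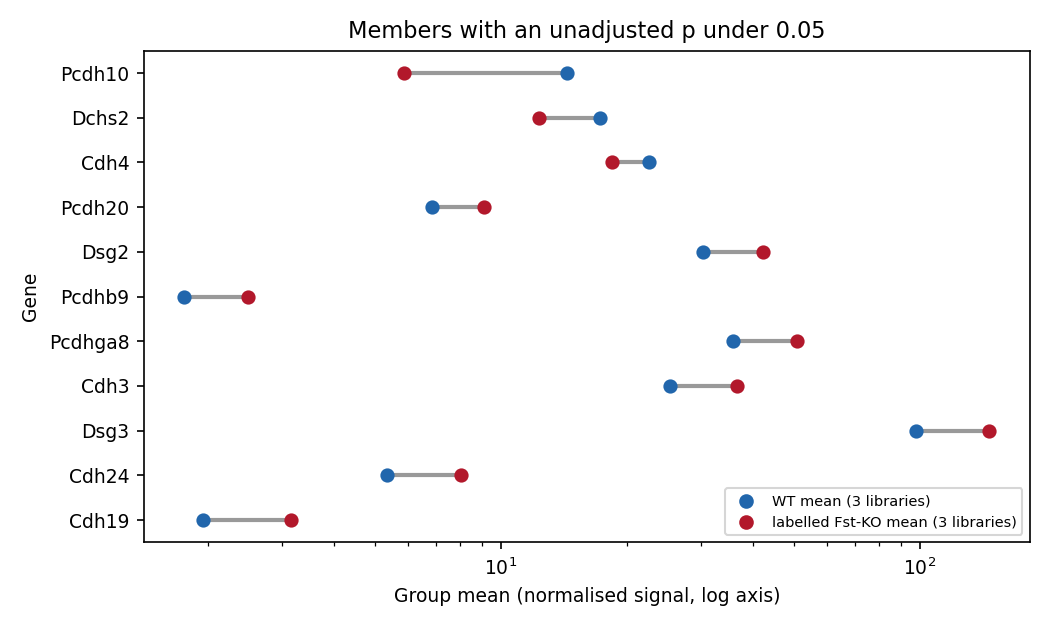
Group means (normalised signal, log axis) of the 11 members with an unadjusted p under 0.05, blue for WT and red for the libraries labelled Fst-KO, each a mean of 3 libraries with no error available. Pcdh10, Dchs2 and Cdh4 have the red point on the left; the other 8 have it on the right, and Pcdh10 has the longest line.

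Among classical type I cadherins the epithelial genes Cdh3 and Cdh1 lay on the higher side and Cdh4 and Cdh15 on the lower side, with 0 of 5 past the FDR. Cdh3 (P-cadherin, of basal epithelial cells and placodes) had a mean of 36.5 in the libraries labelled Fst-KO and 25.3 in WT per the authors' deposited table, a ratio of 1.45 (unadjusted p 0.0122, FDR 0.291). Its neighbour on chromosome 8, Cdh1 (E-cadherin, the main cadherin of epithelia), had means of 198 and 154 and a ratio of 1.28 per the authors' deposited table (unadjusted p 0.105). Both genes lie on the plus strand, Cdh3 from 106510891 to 106557297 and Cdh1 from 106603351 to 106670246. Cdh2 (N-cadherin, of mesenchyme, nerve and muscle) had 9.20 and 6.79, a ratio of 1.35, per the authors' deposited table (unadjusted p 0.0709).

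Cdh4 (R-cadherin, of retina, nerve and developing muscle) was the type I gene on the lower side with an unadjusted p under 0.05. Its mean was 18.5 in the libraries labelled Fst-KO and 22.5 in WT per the authors' deposited table, a ratio of 0.818 (unadjusted p 0.0455, FDR 0.317). Cdh15 (M-cadherin, of myoblasts and satellite cells) had means of 24.4 and 26.6, a ratio of 0.917, per the authors' deposited table (unadjusted p 0.758). Cdh3 and Cdh1 made up 12.7% and 69.1% of the summed type I signal in the libraries labelled Fst-KO, and 10.7% and 65.5% in WT, with no correction for length. Cdh4 and Cdh15 made up 6.43% and 8.50% there, and 9.57% and 11.3% in WT.

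Some markers of cell types differed between the groups at an unadjusted p under 0.05, and their part in the cadherin ratios was not tested. Over all genes, 13.4% were higher and 2.17% lower at that p. Of 8 epithelial markers, 5 (62.5%) were higher at an unadjusted p under 0.05 and 0 lower. The summed mean of the 8 was 4945 in the libraries labelled Fst-KO and 3454 in WT. Epcam, an adhesion protein of epithelia, had a ratio of 2.02 and the basal keratin Krt14 one of 1.47 per the authors' deposited table. Trp63 had 1.12, under the median of all genes, and Cldn4 had 0.854. Of 10 skeletal muscle markers, 0 were higher and 4 (40%) lower at that p, with summed means of 10552 and 14457. The ratio was below 1 for 7 of them and above 1 for 3: Myh3 (1.21), Myod1 (1.27) and Chrna1 (1.26). Of 10 mesenchyme markers, 4 (40%) were higher and 0 lower, with summed means of 5074 and 3793. Of 3 measured salivary gland markers, 0 were higher and 1 (33.3%) lower, with summed means of 7.48 and 17.995. No measured marker of these lists could be at 0. The lowest mean of any listed gene was 0.594 in the libraries labelled Fst-KO and 0.459 in WT.

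All 3 measured type II cadherins lay above the median of all genes. Cdh11 (of mesenchyme and bone) had a mean of 92.0 in the libraries labelled Fst-KO and 79.0 in WT per the authors' deposited table, a ratio of 1.16 (unadjusted p 0.184). Cdh24 (a type II cadherin that binds catenins) had 8.03 and 5.34, a ratio of 1.50, per the authors' deposited table (unadjusted p 0.00271, FDR 0.233). Cdh24 had the lowest unadjusted p of the members that lay higher.

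Cdh19 (of Schwann cell precursors) had the highest ratio of all 75 members. Its means were low, 3.15 in the libraries labelled Fst-KO and 1.95 in WT per the authors' deposited table, a ratio of 1.62 (unadjusted p 0.0213, FDR 0.301). With 10 added to both means, its log2 ratio went from 0.693 to 0.138, below the 0.536 of Dsg3, so the top rank was not kept. Of 8 Schwann cell and nerve markers, 1 reached an unadjusted p under 0.05 as higher, or 12.5% against 13.4% of all genes, and 0 as lower. That marker was the glial gene Sox10, with a ratio of 1.59 per the authors' deposited table. Of the 8, 5 had a ratio above 1 and 3 below it: the neuronal tubulin Tubb3 (0.732), Elavl4 (0.840) and Foxd3 (0.922). The summed means were 52.5 in the libraries labelled Fst-KO and 49.4 in WT. The part of these markers in the Cdh19 value was not tested. Cdh13 (T-cadherin, which is held by a lipid anchor and has no cytoplasmic tail) was the single other cadherin, with means of 52.2 and 48.8 and a ratio of 1.07 per the authors' deposited table.

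Desmosomal cadherins lay on both sides of the median of all genes, with 0 of 7 past the FDR. The 4 genes of basal layers or wide expression (Dsg2, Dsg3, Dsc2 and Dsc3) all lay above the median of all genes, with a median ratio of 1.33 and summed means of 1144 in the libraries labelled Fst-KO and 900.0 in WT. Dsc3 did so narrowly, at 1.142 against 1.136. The 3 genes of differentiated layers (Dsg1a, Dsg1b and Dsc1) all lay below that median, with a median ratio of 0.943 and summed means of 421.0 and 424.6. No unadjusted p of these 3 genes was under 0.05. This division was made after the values were seen, so it is no test of a layer pattern, and the difference between both sets was not tested.

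Dsg3 (a desmoglein that is a target of pemphigus antibodies) had a mean of 147 in the libraries labelled Fst-KO and 97.9 in WT per the authors' deposited table, a ratio of 1.50 (unadjusted p 0.0463, FDR 0.317). Dsg2 (the desmoglein of simple epithelia and basal cells) had 42.2 and 30.3, a ratio of 1.39, per the authors' deposited table (unadjusted p 0.0365, FDR 0.313). The desmocollins Dsc2 and Dsc3 had ratios of 1.28 and 1.14 per the authors' deposited table, with unadjusted p-values of 0.155 and 0.310. Dsc2 had means of 704 and 552 and Dsc3 means of 251 and 220 per the authors' deposited table.

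Dsc1 (the desmocollin of the upper, cornifying layers) had a mean of 9.41 in the libraries labelled Fst-KO and 19.3 in WT per the authors' deposited table, a ratio of 0.488. Its unadjusted p was 0.147, so this difference did not pass the test. Dsg1a had means of 365 and 355, a ratio of 1.03, and Dsg1b, a close copy whose reads can be shared with it, had 47.0 and 49.9, a ratio of 0.943, per the authors' deposited table. Of 9 genes listed for keratinised epithelium, 5 were lower at an unadjusted p under 0.05, or 55.6% against 2.17% of all genes, and 0 were higher. The 5 were the keratins Krt76 and Krt24 and the genes Hrnr, Tchh and Crnn of the fused S100 family, with ratios from 0.228 (Krt76) to 0.466 (Krt24) per the authors' deposited table. The cornified envelope gene Lor had a ratio of 0.429 per the authors' deposited table but an unadjusted p of 0.125. The summed mean of that list was 6307 against 5078, most of it from Krt4 (2330 and 1292) and Krt13 (3616 and 2737). These 2 keratins had ratios of 1.80 and 1.32 per the authors' deposited table. They were the 2 genes of the list with a ratio above 1, while 7 had one below 1. The part of these markers in the Dsc1 value was not tested.

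The 7 measured desmosomal genes lie in 1 cluster on chromosome 18, the desmocollins on the minus strand and the desmogleins on the plus strand. In order along the chromosome from 19960930 to 20604521 they are Dsc3, Dsc2, Dsc1, Dsg1a, Dsg1b, Dsg3 and Dsg2. The 3 genes in the middle of that row had the 3 lowest ratios per the authors' deposited table, and the outer 4 had the higher ones. This is the same division as that by layer, so it is no separate observation. It too was made after the values were seen, and a link with position was not tested. None of the 3 middle genes had an unadjusted p under 0.05.

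The plaque that anchors these cadherins held no gene with an unadjusted p under 0.05. Of 9 measured plaque genes, 7 had a ratio above 1 but just 2 exceeded the median of all genes, with a median ratio of 1.07. Dsp (desmoplakin, the link to keratin filaments) had a mean of 1549 in the libraries labelled Fst-KO and 1438 in WT per the authors' deposited table, a ratio of 1.08 (unadjusted p 0.529). Jup (plakoglobin, shared by desmosomes and adherens junctions) had 407 and 339, a ratio of 1.20, per the authors' deposited table (unadjusted p 0.255). The plaque genes ranged from 0.968 to 1.20, while the desmosomal cadherins ranged from 0.488 to 1.50. The low end of the cadherins was Dsc1 alone (unadjusted p 0.147), and the next lowest was Dsg1b at 0.943. The difference in spread was not tested.

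**Figure D4:**
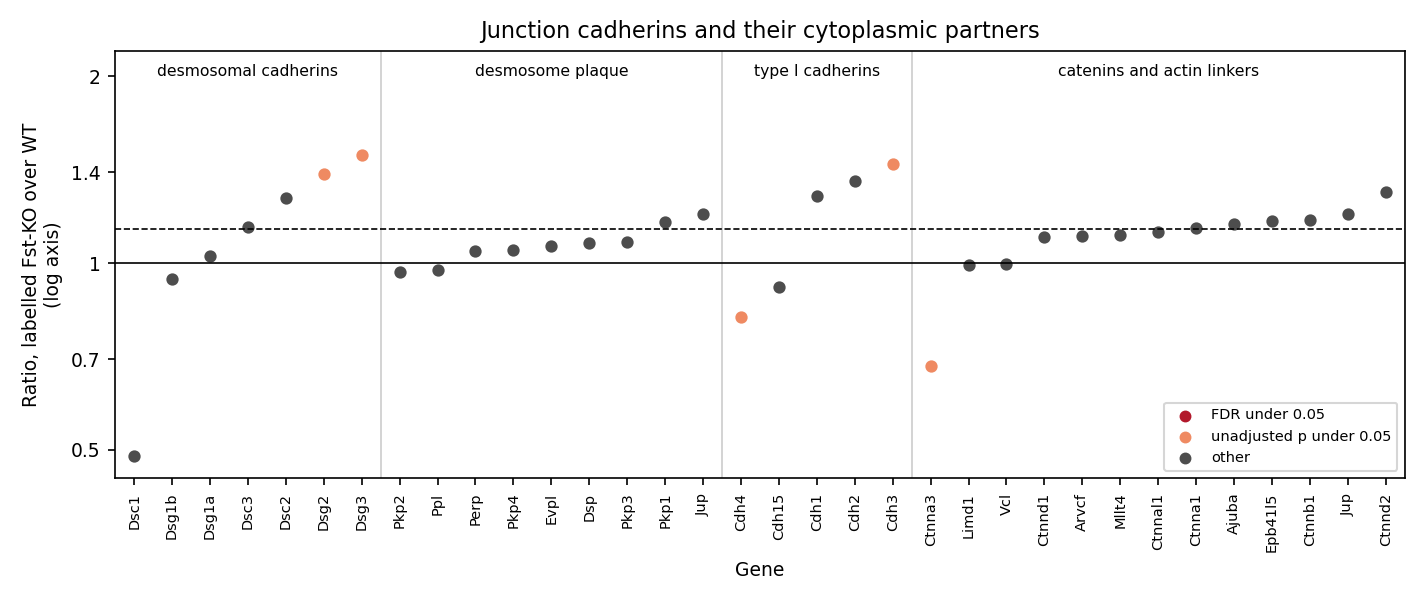
Ratio of group means (labelled Fst-KO over WT, log axis) for desmosomal cadherins, desmosome plaque genes, type I classical cadherins, and catenins and actin linkers, 1 point per gene in order of ratio; the solid line is 1 and the dashed line the median of all genes (1.14). Cadherins spread from 0.488 (Dsc1) to 1.50 (Dsg3), and plaque genes stay between 0.968 and 1.20. Jup is shown in both partner lists.

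Catenins and actin linkers had a median ratio of 1.12 over 13 measured genes, close to the 1.14 of all genes, with 0 genes on the higher side and 1 on the lower side at an unadjusted p under 0.05. Ctnnb1 (beta-catenin, which binds the tail of classical cadherins) had a mean of 668 in the libraries labelled Fst-KO and 570 in WT per the authors' deposited table, a ratio of 1.17 (unadjusted p 0.109). The lower gene was Ctnna3 (alpha-T-catenin, of heart and muscle junctions), with means of 2.92 and 4.28 and a ratio of 0.682 per the authors' deposited table (unadjusted p 0.0449). Nectins had a median ratio of 1.06 over 5 genes with 0 at that p, and Pvrl1 (nectin-1) had means of 87.8 and 69.4 and a ratio of 1.27 per the authors' deposited table.

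Transcription factors known to repress Cdh1 had ratios on both sides of the median of all genes. All 7 had a ratio above 1, with a median of 1.17, 4 lay above the median of all genes, and at an unadjusted p under 0.05 there were 2 higher (28.6% against 13.4% of all genes) and 0 lower. Snai2 (Slug, of migrating mesenchyme and basal epithelium) had means of 35.6 in the libraries labelled Fst-KO and 25.2 in WT per the authors' deposited table, a ratio of 1.41 (unadjusted p 0.0169). Tcf3 (the E-protein gene whose products include E47) had a ratio of 1.29 and Zeb1 one of 1.03 per the authors' deposited table, with unadjusted p-values of 0.0293 and 0.685.

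The clustered protocadherins lay on both sides of the median of all genes, with 0 of 41 past the FDR. Their ratios ran from 0.862 to 1.42, with a median of 1.09, and 16 of 41 lay above the median of all genes. At an unadjusted p under 0.05, 2 were higher, or 4.88% against 13.4% of all genes, and 0 were lower. They stand in 3 arrays on chromosome 18 on the plus strand. The beta array spans 37300799 to 37524479 and the gamma array 37661793 to 37841873 (mm10), and 1 gene of the alpha array, Pcdhac2, was measured, with means of 1.19 and 1.15 per the authors' deposited table.

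Beta genes are single-exon genes, and gamma genes join their own first exon to constant exons at the end of the array. All 19 measured beta genes had a ratio above 1, as did 81% of all genes. Of the 19, 13 exceeded the median of all genes, and their median ratio was 1.16. Of 21 gamma genes, 13 had a ratio above 1 but just 3 exceeded the median of all genes, with a median ratio of 1.02. The difference between the arrays was not tested, since genes of 1 array share libraries, sequence and, in the gamma array, exons. Beta means were low, from 0.956 to 8.86 in WT. Pcdhb10 and Pcdhb12 had WT means of 0.997 and 0.956, under the lowest listed mean over both groups (1.01). They were thus listed through the libraries labelled Fst-KO, and the count of beta genes above 1 partly follows from that filter.

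The 2 clustered genes with an unadjusted p under 0.05 were Pcdhb9 and Pcdhga8. Pcdhb9 had a mean of 2.49 in the libraries labelled Fst-KO and 1.76 in WT per the authors' deposited table, a ratio of 1.42 (unadjusted p 0.0415, FDR 0.317). Pcdhga8 had 51.0 and 35.8, also a ratio of 1.42, per the authors' deposited table (unadjusted p 0.0161, FDR 0.297). The genes beside it in the array, Pcdhgb4 and Pcdhgb5, had ratios of 0.936 and 1.07 per the authors' deposited table, both with an unadjusted p above 0.05. Reads in the constant exons belong to every gamma gene, and how they were divided was not given in the sources used here, so the values of single gamma genes are uncertain.

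Pcdhgc3 took 53.3% of the summed gamma signal in WT and 49.7% in the libraries labelled Fst-KO, and Pcdhga8 took 13.2% and 17.8%. Pcdhgc3 (a C-type isoform that is expressed in many cells) had means of 142 in the libraries labelled Fst-KO and 145 in WT per the authors' deposited table, a ratio of 0.981 (unadjusted p 0.829). The sum over all 21 measured gamma genes was 286 against 271, a ratio of 1.05. How shared reads were divided among these genes leaves it unchanged only if each read was counted once and values were not divided by length. The lowest ratio in the arrays was that of Pcdhgb1, with means of 3.19 and 3.70 and a ratio of 0.862 per the authors' deposited table (unadjusted p 0.260).

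**Figure D5:**
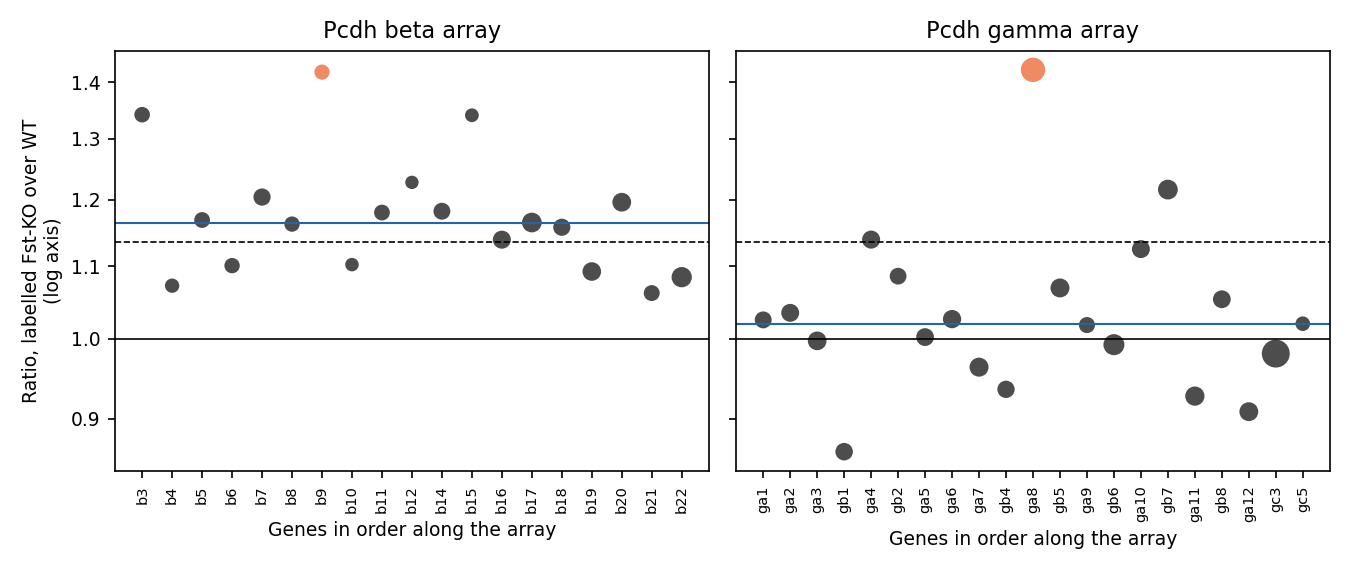
Ratio of group means (labelled Fst-KO over WT, log axis) for the beta genes (19) and gamma genes (21) in their order along the chromosome; symbol area grows with the WT mean, orange marks an unadjusted p under 0.05, the solid black line is 1, the dashed line the median of all genes (1.14) and the blue line the array's median. Every beta point lies above 1, and gamma points lie on both sides with a median of 1.02.

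Giant cadherins lay on both sides of the median of all genes, with 0 of 8 past the FDR and a median ratio of 1.12. Dchs2 (a relative of the ligand Dchs1) was the single member of this group with an unadjusted p under 0.05. Its mean was 12.3 in the libraries labelled Fst-KO and 17.3 in WT per the authors' deposited table, a ratio of 0.715 (unadjusted p 0.00881, FDR 0.279). It lies on chromosome 3 from 83127948 to 83357209 on the plus strand (mm10). Dchs1 and its receptor Fat4, which signal between neighbouring cells, had ratios of 1.09 and 1.02 per the authors' deposited table, with unadjusted p-values of 0.288 and 0.716.

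The remaining Fat genes lay on both sides of 1. Fat1 (of epithelial and muscle cells) had a mean of 238 in the libraries labelled Fst-KO and 208 in WT per the authors' deposited table, a ratio of 1.15 (unadjusted p 0.0721). Fat2, which is found in basal keratinocytes and cerebellar granule cells, had 56.1 and 41.8, a ratio of 1.34, per the authors' deposited table (unadjusted p 0.0580). Fat3 had 4.45 and 5.63, a ratio of 0.792, per the authors' deposited table (unadjusted p 0.241). None of the 3 had an unadjusted p under 0.05.

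Celsr genes, which carry planar polarity across epithelial cell borders, were both above the median of all genes. Celsr1 had a mean of 90.7 in the libraries labelled Fst-KO and 70.4 in WT per the authors' deposited table, a ratio of 1.29 (unadjusted p 0.0717). Celsr2 had 104 and 84.6, a ratio of 1.23, per the authors' deposited table (unadjusted p 0.0737). Of 17 planar polarity and Fat-Dchs partner genes, 3 reached an unadjusted p under 0.05 as higher, or 17.6% against 13.4% of all genes, and 0 as lower. Their median ratio was 1.12 against 1.14 for all genes. The 3 were the polarity genes Ankrd6 (Diversin), Vangl1 and Prickle2, with ratios of 1.88, 1.26 and 1.22 per the authors' deposited table. Yap1, the growth regulator downstream of Fat signalling, had a ratio of 1.06 per the authors' deposited table (unadjusted p 0.422).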

How the data were processed

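Values are those of the authors' deposited table for 3 WT libraries and 3 labelled Fst-KO. BWA 0.7.12, Partek and the build mm10 stand in the submitters' processing notes. The series' design text names Partek's gene-specific analysis as the test; annotation, counting and normalisation were not given in the sources used here. Per the file headers, both group means hold the authors' normalised signal, the ratio is the authors' mutant over WT, and the p-values and FDR are theirs; a signed fold change was not used. The ratio equalled the quotient of the means, and the FDR a Benjamini-Hochberg adjustment, for all 15648 genes (relative tolerance 1e-06). The column of totals, though headed as counts, equalled 3 times the sum of both means.

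Genes were called at an FDR under 0.05, and those with an unadjusted p under 0.05 are given as values. The header word "mutant" was read as Fst-KO, the one mutant group of the titles. Since it holds no value per library, the tests planned for counts or values per library were not run. With 3 libraries against 3, an exact permutation test could not go below 0.1. Members and lists were chosen with earlier results of these data known. Genes named were members with an unadjusted p under 0.05, and in each subfamily the 2 highest means and both extreme ratios; partner genes with such a p and the highest mean of each list. Other named genes were picked with their values known. A marker gene of the planned lists is not reported here. Positions come from GENCODE M21 on GRCm38 (all 75 matched); 16 members had a RefSeq promoter entry. Python 3.11.15 with pandas 2.3.3 was used, and the adjustment was tested on simulated data. Alternatives changed the scaling, the pseudocount, the filter on low values and the threshold.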

Additional observations from a re-analysis of the deposited data

How the results depend on the processing

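No paired analysis was possible because the table holds 1 mean per group, and for the same reason no library could be left out in turn. The 1 member past the FDR (Pcdh10) remained the single call at an FDR under 0.1. It has a mean below the median of all genes (16.1), so over the 7824 abundant genes 0 of 24 members passed after a new adjustment, where 4 genes passed in all and the lowest FDR of a member was 0.288 (Cdh3). At an unadjusted p under 0.05 the count was 11. Both other scalings lower every ratio by the same factor, so a ratio below 1 cannot turn. The Pcdh10 ratio became 0.36 and 0.375. Adding the same number to both means cannot turn a direction but brings ratios nearer to 1, and the Pcdh10 ratio went from 0.409 to 0.447 with 1 added and to 0.652 with 10. The number of members with a ratio above 1 was 58. It fell to 33 when ratios were divided by the median of all genes and to 38 with sums made equal without the most abundant 1% of genes. It was 20 over abundant genes only and 25 without the clustered protocadherins, in both cases because fewer members were counted. For junction partners it was 40, and 19 relative to the median of all genes. Under the median scaling 25 members changed sides and with equal sums 20, since their ratios lay between 1 and the median, among them Fat4, Dchs1, Pcdh17 and Pcdhgb5 under both scalings. Median ratios of subfamilies that lay above 1 also turned below it under both: 1.09 to 0.956 and 0.995 for clustered protocadherins, 1.02 to 0.900 and 0.938 for non-clustered ones and 1.07 to 0.941 and 0.980 for Cdh13, the single other cadherin. For giant cadherins 1.12 became 0.984 and 1.02. With 10 added to both means the type II median was 1.15 instead of 1.50. Of the genes chosen by the naming rule, 7 changed sides under both scalings. Divided by that median, the ratios were 0.941 for Cdh13, 0.903 for Dsg1a, 0.948 for Dsp, 0.888 for Pcdh1, 0.896 for Pcdh18, 0.934 for Yap1 and 0.906 for Zeb1. In log2 these are -0.088, -0.15, -0.077, -0.17, -0.16, -0.099 and -0.14. With equal sums they are -0.029, -0.088, -0.018, -0.11, -0.099, -0.040 and -0.083, in the same order. None of the 7 had an unadjusted p under 0.05.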

Other observations

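Genes with cadherin repeats outside the naming rule had a ratio above 1 about as often as all genes, in 5 of 6 (83.3% against 81%). The 3 lists used here were drawn up with the values known. Of 9 listed, 6 were measured, 5 lay above the median of all genes, and 2 were higher at an unadjusted p under 0.05, or 33.3% against 13.4% of all genes. Cdhr1, a photoreceptor cadherin, had a mean of 8.93 in the libraries labelled Fst-KO and 4.51 in WT per the authors' deposited table, a ratio of 1.98 (unadjusted p 0.000432, FDR 0.140). Clstn1, a calsyntenin that carries vesicle cargo in neurons and other cells, had 157 and 126, a ratio of 1.25, per the authors' deposited table (unadjusted p 0.0218). Ret, the receptor of GDNF family ligands, had a ratio of 1.38 per the authors' deposited table (unadjusted p 0.115).

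Genes known to control the promoters of clustered protocadherins, among them CTCF, cohesin and DNA methyltransferases, lay close to all genes: the median ratio of the 14 was 1.17 against 1.14, and all 14 had a ratio above 1, as did 81% of all genes. At an unadjusted p under 0.05, 2 were higher, or 14.3% against 13.4% of all genes. They were the chromatin protein gene Smchd1 at 1.30 and the maintenance methyltransferase gene Dnmt1 at 1.41 per the authors' deposited table. Ctcf itself had a ratio of 1.12 per the authors' deposited table (unadjusted p 0.137). Of 9 genes for cadherin shedding and turnover, 3 were higher at that p, or 33.3% against 13.4% of all genes. They were the secretase genes Psen2 and Ncstn at 1.34 and 1.27 and the membrane protease gene Mmp14 at 1.27 per the authors' deposited table, and the main cadherin sheddase Adam10 had 1.15.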
